A study of Mus musculus with 7 samples.

Results

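The 9 genes described here encode adhesion receptors that hold blood-forming cells in the bone marrow, namely the integrin alpha subunits *Itga4*, *Itga5*, *Itga6*, *Itgal* and *Itgam*, the integrin beta subunits *Itgb1*, *Itgb2* and *Itgb7*, and the hyaluronan receptor gene *Cd44*. They were taken by name from the 25033 gene symbols listed for each mouse, and all 9 were found and passed the filter on low counts that kept 11265 genes. RNA came from lin- bone marrow cells, which are depleted of cells bearing mature lineage markers, of 3 wild type (*HRP-2*+/+, WT) and 4 knockout (*HRP-2*-/-, KO) mice. The knockout is systemic, so other tissues of the mice lacked HRP-2 too, and rests on the tm1b allele in C57BL/6N mice, and the cells were isolated from femur and tibia of mice aged 6 to 8 weeks. No mouse was treated, and each library is labelled as a biological replicate. Levels are given in CPM, which are the reads of a gene scaled to the size of the library with TMM factors, and since the 3′ end kit yields 1 fragment per transcript they were not divided by gene length.

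Integrins are pairs of an alpha and a beta subunit that bind matrix proteins or receptors on neighbouring cells, and the subunits present decide which ligand is bound. The alpha 4 subunit pairs with beta 1 to bind VCAM-1 and fibronectin, and with beta 7 to bind MAdCAM-1, while alpha 5 beta 1 binds fibronectin and alpha 6 beta 1 binds laminin. The leukocyte integrins share beta 2, with alpha L (LFA-1) binding ICAMs and alpha M (CD11b, Mac-1) binding fibrinogen, ICAM-1 and complement. CD44 binds hyaluronan and can carry selectin ligands. None of the 9 genes encodes a selectin, and genes of selectins and their ligands are given further on.

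Promoter sequence bears on these genes as context only, and is shown for *Itgam*, a gene of mature myeloid cells, and *Itga4*, the main alpha subunit of progenitor adhesion. Their ratio was, on the log2 scale, the most variable between KO mice among the pairs with ample reads. The windows are the 250 bases before the RefSeq start on GRCm38.p6, at chr7:128062390-128062639 for *Itgam* and chr2:79255176-79255425 for *Itga4*, both on the plus strand. Capitals mark GAGGAA, the purine-rich core of PU.1 sites, and TGTGGT, the core of RUNX sites, on either strand.
Itgam: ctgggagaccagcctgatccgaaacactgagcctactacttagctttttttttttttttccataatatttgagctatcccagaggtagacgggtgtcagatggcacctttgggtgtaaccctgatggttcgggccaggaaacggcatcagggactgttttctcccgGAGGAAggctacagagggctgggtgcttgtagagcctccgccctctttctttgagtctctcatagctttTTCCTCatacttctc
Itga4: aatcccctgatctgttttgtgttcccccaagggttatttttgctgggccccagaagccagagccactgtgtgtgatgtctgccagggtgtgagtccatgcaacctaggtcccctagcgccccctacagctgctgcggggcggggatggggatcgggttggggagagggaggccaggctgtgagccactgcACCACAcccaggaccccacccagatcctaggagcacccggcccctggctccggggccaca
The *Itgam* window held 2 matches to GAGGAA, which began 84 and 15 bases before the start, and none to TGTGGT. The *Itga4* window held 1 match to TGTGGT, which began 60 bases before the start, and none to GAGGAA. Of 32851 such windows, 23.3% held GAGGAA and 14% held TGTGGT, so a match in a window is common and is given as a description. Windows were found for 6 of the 9 genes, and 4 of those 6 held GAGGAA.

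The genotype labels were checked first. *Hdgfl2*, which encodes HRP-2, had 228, 156 and 168 reads in WT replicates 1 to 3 and 13, 3, 8 and 2 reads in KO replicates 1 to 4, a log2 fold change of -5.09 (SE 0.34, adjusted p = 1.38e-07 in edgeR's quasi-likelihood test). Depth was 3525665 to 5605158 reads on genes per mouse, and the ribosomal RNA precursor *Rn45s* took 4.94% to 20.6% of them. KO replicate 3 stood apart, with *Xist* at 0.559 CPM and the Y-linked *Ddx3y* at 104 CPM, where the other 6 mice had *Xist* at 228 to 302 CPM and *Ddx3y* at no more than 0.775 CPM. *Xist* and *Ddx3y* so mark KO replicate 3 as male and the other 6 mice as female, while the sample labels used here give no sex. The KO mice were thus of mixed sex and the WT mice were not, so results are also given without KO replicate 3. Progenitor genes were abundant (*Myb* 677 ± 56.2 CPM in WT, SD, n = 3), and so were genes of maturing neutrophils such as *S100a8* (3390 ± 1546 CPM, SD, n = 3). In these bulk samples, fewer cells of a type and less RNA per cell cannot be told apart.

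The 9 genes fell into clear tiers of abundance in both genotypes. *Cd44* and *Itgal* were the most abundant and lay above 96% of all tested genes in WT cells, and *Itgb7* followed as the most abundant beta subunit. *Itgb1*, *Itgb2* and *Itga4* made up a middle tier whose ranges over the 7 mice overlapped, although *Itga4* was below *Itgb1* in each mouse. *Itga6* lay below them, and *Itgam* was lower than *Itga6* in each of the 7 mice, although the ranges of both over all mice met between 49.4 and 53.5 CPM. *Itga5* was close to the detection limit, with 6 to 30 reads per mouse, at percentile 6.6 of the tested genes. The other 8 genes had at least 100 reads in every mouse.

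The comparison of KO with WT mice showed no change in any of the 9 genes that passed the test. At an adjusted p under 0.25, 0 of 9 were called by edgeR, where 0.0178% of all tested genes were. None of the 9 had an unadjusted p under 0.05, against 3.63% of all tested genes, and DESeq2 and limma-voom likewise called 0 and found 0 with an unadjusted p under 0.05. The log2 fold changes were above zero for 5 genes and below zero for 4, with a median of 0.02 beside -0.0014 for all tested genes. In no gene did all KO mice lie above all WT mice, which 2.37% of the tested genes did, and in none did all lie below, which 2.8% did. Without KO replicate 3 the 9 genes again split into 5 and 4, with 0 called. For the 8 genes with ample reads, the 95% intervals of the fold change reached from 0.646 at the lowest to 1.66 at the highest, so larger changes than these lie outside the intervals.

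**Figure D1:**
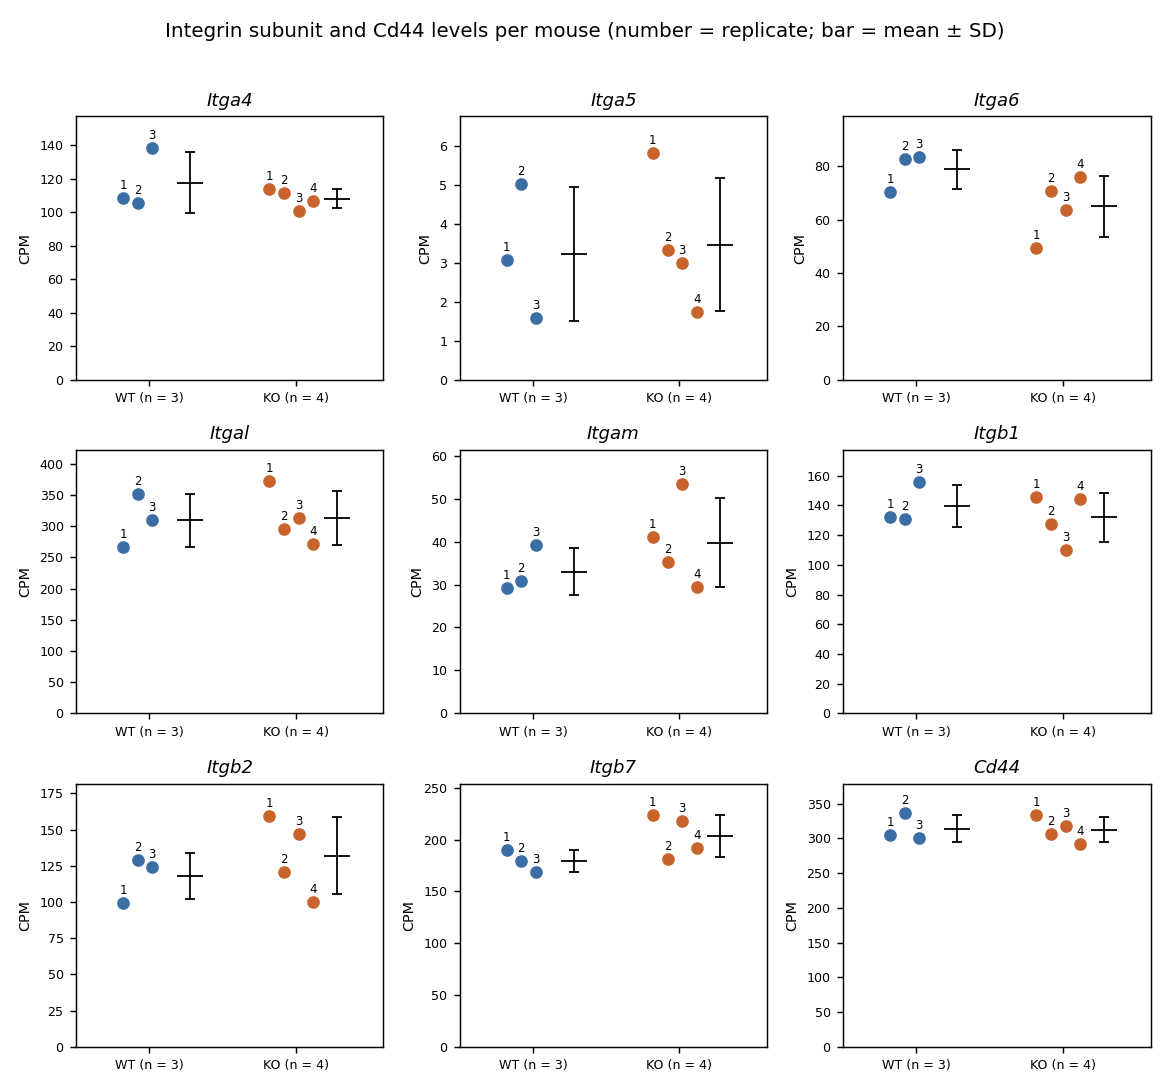
CPM of each gene (y axis, linear from 0) in the 3 WT (blue) and 4 KO (orange) mice, with the replicate number at each point and the mean ± SD as a black bar. The genotypes overlap in all 9 panels, and KO replicate 3 has the highest Itgam value at 53.5 CPM.

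Among the receptors for VCAM-1 and fibronectin, *Itga4* had 109, 105 and 138 CPM in WT replicates 1 to 3 and 114, 111, 101 and 106 CPM in KO replicates 1 to 4. WT replicate 3 was the highest of all, KO replicate 3 was the lowest, and the others lay close together. The mean level was 117 ± 18.2 CPM (SD, n = 3) in WT and 108 ± 5.74 CPM (SD, n = 4) in KO cells, with a log2 fold change of -0.12 (SE 0.14, 95% interval -0.42 to 0.18, adjusted p = 0.999 in edgeR). Without WT replicate 3 the log2 fold change was 0.02. The *Itga4* gene spans bases 79255426 to 79333123 of chromosome 2 (GRCm38), and its exons overlap those of *Cerkl* on the opposite strand. *Cerkl* had 21 to 61 reads per mouse against 377 to 587 for *Itga4*, and since the strand counted is not given in the sources used here, the assignment of shared reads is uncertain.

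*Itgb1*, the beta subunit shared by alpha 4, alpha 5 and alpha 6, had 132, 131 and 156 CPM in the WT mice and 146, 127, 110.3 and 144 CPM in the KO mice. Again WT replicate 3 was the highest, KO replicate 3 was the lowest, and the genotypes overlapped. The log2 fold change was -0.08 (SE 0.14, interval -0.38 to 0.22, adjusted p = 0.999 in edgeR), and it was -0.0048 without KO replicate 3 and 0.0061 without WT replicate 3. *Itgb7*, the alternative partner of alpha 4, had 190.0, 179 and 169 CPM in WT and 224, 182, 218 and 192 CPM in KO mice. KO replicates 1, 3 and 4 lay above every WT mouse and KO replicate 2 did not. Its mean was 179 ± 10.7 CPM (SD, n = 3) in WT and 204 ± 20.3 CPM (SD, n = 4) in KO cells, with a log2 fold change of 0.19 (SE 0.13, interval -0.09 to 0.46, unadjusted p = 0.175, adjusted p = 0.999 in edgeR). The fold change of *Itgb7* was above zero under every alternative and omission tried, from 0.14 to 0.24 on the log2 scale, and none reached the threshold.

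*Itga6*, the laminin-binding subunit also known as CD49f, which is found on stem and progenitor cells and platelets, had 70.2, 82.7 and 83.5 CPM in WT and 49.4, 70.7, 63.7 and 75.8 CPM in KO mice. KO replicates 1 and 3 lay below every WT mouse, and the other KO mice lay between the lowest and the next WT mouse. The mean was 78.8 ± 7.43 CPM (SD, n = 3) in WT and 64.9 ± 11.4 CPM (SD, n = 4) in KO cells. With a log2 fold change of -0.28 (SE 0.17, interval -0.63 to 0.07), it had the smallest p of the 9 genes (unadjusted p = 0.110, adjusted p = 0.999 in edgeR) and ranked 973 of 11265 tested genes. Its log2 fold change lay between -0.37 and -0.17 in every alternative and omission tried, the latter without KO replicate 1.

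*Itga5*, the fibronectin receptor subunit, had 3.06, 5.03 and 1.59 CPM in WT and 5.82, 3.32, 2.98 and 1.74 CPM in KO mice. Its coefficient of variation was 53.5% in WT and 49.3% in KO mice, where counting error alone gives 28.1% and 24.1%. The interval of its log2 fold change of 0.12 ran from -1.07 to 1.31, so a 2-fold difference in either direction lies inside the interval.

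Of the leukocyte integrins, *Itgb2*, the common beta subunit, had 99.6, 129 and 124 CPM in WT and 159, 121, 147 and 100.2 CPM in KO mice. KO replicates 1 and 3 lay above every WT mouse, while KO replicate 4 lay next to the lowest WT mouse. The log2 fold change was 0.17 (SE 0.17, interval -0.18 to 0.52, adjusted p = 0.999 in edgeR). It was 0.07 without WT replicate 1, 0.07 without KO replicate 1, 0.11 without KO replicate 3 and 0.28 without KO replicate 4. *Itgal*, the alpha subunit of LFA-1, had 267, 352 and 309.8 CPM in WT and 372, 296, 314 and 272 CPM in KO mice, and the means of 309.8 ± 42.6 CPM (SD, n = 3) and 313 ± 42.6 CPM (SD, n = 4) differed by far less than the spread between mice of either genotype. Its log2 fold change was 0.02 (SE 0.14, interval -0.28 to 0.32).

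*Itgam*, which encodes CD11b, a marker of mature myeloid cells that lineage depletion commonly targets, had 29.1, 30.7 and 39.2 CPM in WT and 41.1, 35.2, 53.5 and 29.3 CPM in KO mice. KO replicates 1 and 3 lay above every WT mouse, and KO replicate 4 was level with the lowest WT mice. The mean was 33.0 ± 5.43 CPM (SD, n = 3) in WT and 39.8 ± 10.3 CPM (SD, n = 4) in KO cells. The log2 fold change was 0.27 (SE 0.22, interval -0.18 to 0.73, unadjusted p = 0.220, adjusted p = 0.999 in edgeR), and it was 0.10 without KO replicate 3 and 0.42 without WT replicate 3. The gene spans bases 128062640 to 128118491 of chromosome 7 (GRCm38), where an annotated gene of the same strand, *Gm49368*, shares exons with it.

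*Itgam* rises as neutrophils mature, so the late granule genes of that lineage are given beside it. The summed level of the 12 genes of that list, which include *S100a8*, *S100a9* and *Ngp*, was 8017 to 11157 CPM in WT and 9096 to 25278 CPM in KO mice, with the highest sum in KO replicate 3, the mouse with the highest *Itgam*. All 12 had a log2 fold change above zero and 0 were called by edgeR, with 0 at an unadjusted p under 0.05. Without KO replicate 3, 9 were above zero and 3 below. No gene of the list was at 0 in all mice, and the part of these genes in the *Itgam* values was not tested.

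**Figure D2:**
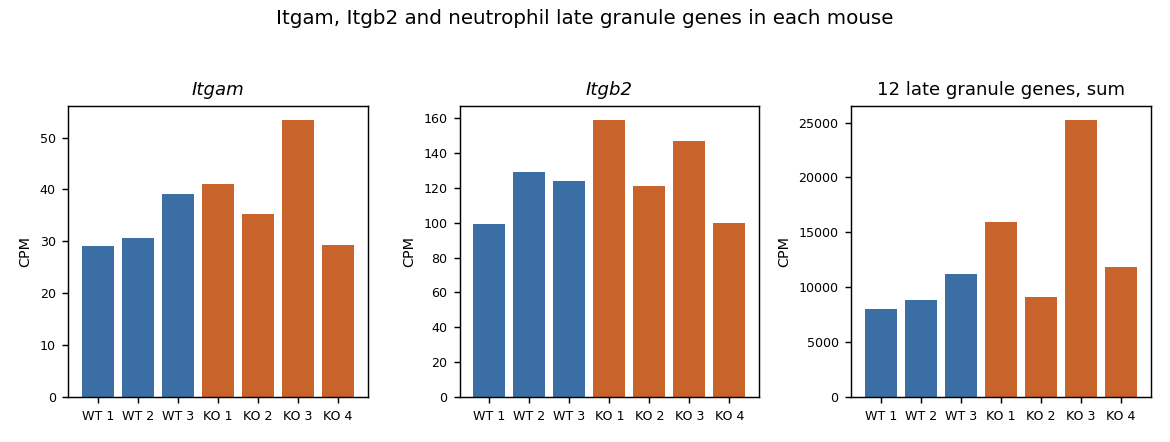
CPM (y axes, linear from 0) of Itgam, Itgb2 and the sum of 12 neutrophil late granule genes, 1 bar a mouse, WT in blue and KO in orange. KO replicate 3 has the highest Itgam (53.5 CPM) and the highest granule sum (25278 CPM), while the highest Itgb2 (159 CPM) is in KO replicate 1.

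*Cd44* was the least variable of the 9 genes in WT mice after *Itgb7*. It had 304, 336 and 301 CPM in WT and 334, 307, 318 and 292 CPM in KO mice, and the coefficient of variation was 6.21% and 5.78%, where counting error alone gives 2.84% and 2.56%. The means of 314 ± 19.5 CPM (SD, n = 3) and 313 ± 18.1 CPM (SD, n = 4) gave a log2 fold change of -0.0047 (SE 0.12). Its 95% interval, in folds, was 0.832 to 1.19, the narrowest of the 9.

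**Figure D3:**
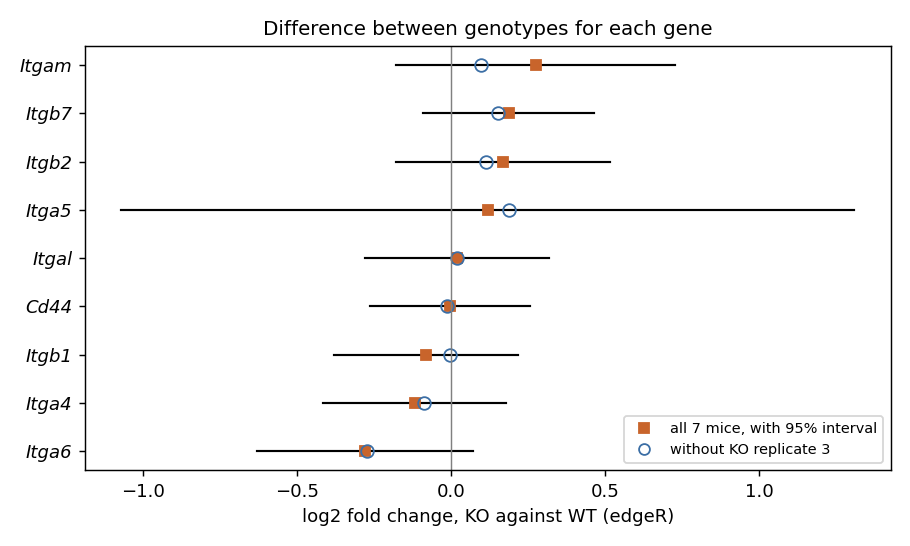
Log2 fold change of KO against WT from edgeR (x axis) for each gene (y axis), as an orange square with its 95% interval over all 7 mice and as an open blue circle without KO replicate 3. Every interval contains 0, that of Itga5 is the widest (-1.07 to 1.31), and Itgam moves most between the fits (0.27 and 0.10).

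Ratios between the subunits of a pair were taken within each mouse, where library scaling cancels, and they describe transcripts rather than surface pairs. *Itga4* stood at 0.823, 0.806 and 0.886 of *Itgb1* in the WT mice and at 0.781, 0.873, 0.914 and 0.738 in the KO mice, so the alpha 4 and beta 1 transcripts were close to balanced in every mouse. The alpha subunits were unequal on beta 1, since *Itga6* stood at 0.339 to 0.633 of *Itgb1* and *Itga5* at 0.0102 to 0.0399. On beta 2, *Itgal* exceeded its partner by 2.13 to 2.72 times in all mice, and *Itgam* was 0.238 to 0.363 of it. *Itga4* was 0.571, 0.588 and 0.821 of *Itgb7* in WT and 0.509, 0.612, 0.462 and 0.554 of it in KO mice, and the genotypes overlapped.

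By the SD of the log2 ratio, the WT mice were closest together for *Itgam* to *Itga4*. The KO mice were widest apart for the same pair, leaving out the ratio to the sparse *Itga5*. Their SD of 0.41 was close to the 0.40 of *Itgb2* to *Itgb1*. On the linear scale the *Itgam* to *Itga4* ratio was 0.268, 0.292 and 0.284 in WT and 0.361, 0.317, 0.531 and 0.276 in KO mice. KO replicates 1, 2 and 3 lay above every WT mouse and KO replicate 4 lay among them. *Itgb2* to *Itgb1* ran from 0.755 to 0.989 in WT and from 0.695 to 1.33 in KO mice. In all 8 ratios examined, the genotypes overlapped.

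**Figure D4:**
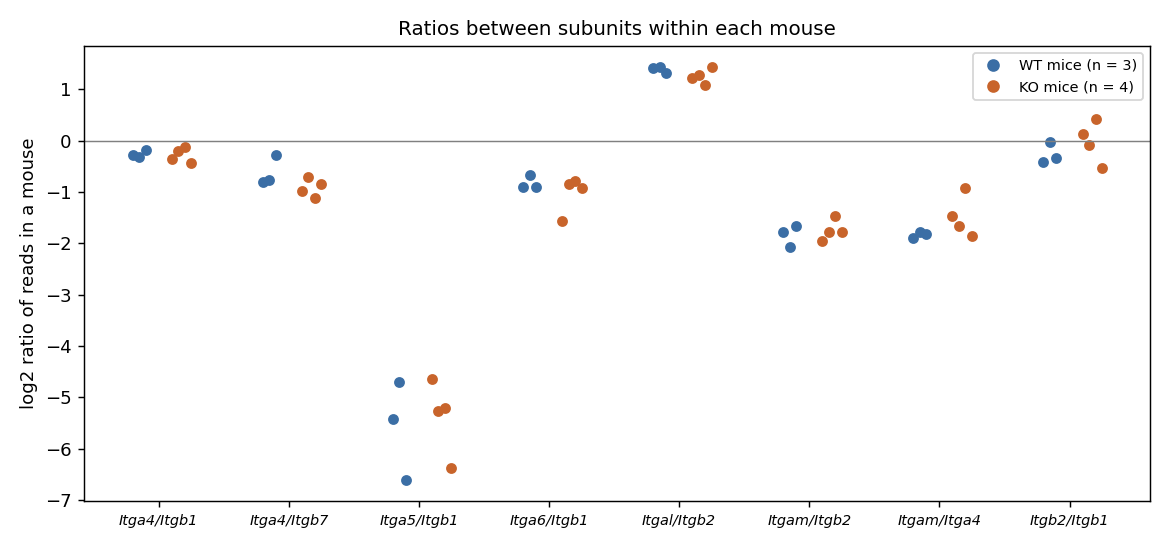
Log2 ratio of reads (y axis) for 8 pairs of genes (x axis) within each of the 3 WT (blue) and 4 KO (orange) mice. Itgal exceeds Itgb2 in every mouse (linear ratio 2.13 to 2.72), Itga5 is far below Itgb1 (0.0102 to 0.0399), and for each pair the genotypes overlap.

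Across the 7 mice, partner subunits differed in how far they varied together in log2(CPM + 1), given here as a description of 7 libraries that share depth and composition effects. The Pearson correlation was 0.88 for *Itgal* with *Itgb2*, 0.79 for *Itgam* with *Itgb2* and 0.76 for *Itga4* with *Itgb1*, and these were 0.95, 0.81 and 0.73 without KO replicate 3. It was 0.14 for *Itga6* with *Itgb1*, -0.26 for the sparse *Itga5* with *Itgb1* and -0.52 for *Itga4* with *Itgb7*, and -0.06, -0.46 and -0.38 without that mouse. Some pairs that are not partners varied together as closely or more. The correlation was 0.91 for *Itga5* with *Cd44* and 0.90 for *Itgal* with *Cd44*, and it was -0.89 for *Itga6* with *Itgb7*. High values were therefore not particular to partner subunits. The 3 tested genes with the highest correlation to *Itgam* were *Cxcr4* (0.985), the CXCL12 receptor gene, *Clec4d* (0.961), a myeloid lectin gene, and *Retnlg* (0.96), a neutrophil gene that is on the granule list. For *Itgb2* they were *Rbbp5*, *Tnfrsf25* and *Plaur* (0.974 to 0.977), and for *Itgb7* they were *Milr1*, *Aim2* and *Dbnl* (0.974 to 0.984). *Dnajc24*, *A630089N07Rik* and *Ptpn11* were closest to *Itga4*, *Gm9776*, *Sgk3* and *Tsen34* to *Itga5*, and *Hscb*, *Rhoj* and *Ccnb1* to *Itga6*. *Wdr5*, *Appl1* and *Flvcr1* were closest to *Itgal*, *Nudt6*, *Itih5* and *Add1* to *Itgb1*, and *Trim14*, *Tsen34* and *Ddhd2* to *Cd44*. Each was the top of 11265 genes over only 7 mice, so high values are expected of the choice itself.

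The genes around these receptors were read from 8 lists with 157 different genes, of which 121 were tested. By edgeR 0 were called, 67 had a log2 fold change above zero and 54 below, and 7 had an unadjusted p under 0.05 (the background was 3.63%). In 2 of the 121 (1.65%) all KO mice lay above all WT mice, where 2.37% of all tested genes did. In 4 (3.31%) all lay below, where 2.8% of all tested genes did, so both shares were near the background. limma-voom also called 0, with 7 at an unadjusted p under 0.05. DESeq2 called 1, *Fn1*, where it called 19 genes over the whole table, and had 8 at an unadjusted p under 0.05.

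Ligands of the receptors included *Fn1* and *Vcam1*, whose genotypes did not overlap. Of 20 listed, 12 were tested, with 7 above zero, 5 below and 0 called, and a median log2 fold change of 0.06. *Fn1*, which encodes fibronectin, the ligand of alpha 4 beta 1 and alpha 5 beta 1, had 48.4, 66.8 and 86.9 CPM in WT and 115, 127, 201 and 95.4 CPM in KO mice. All KO mice lay above all WT mice, with a log2 fold change of 1.00 (SE 0.26, unadjusted p = 0.00244), which did not pass in edgeR (adjusted p = 0.839) and passed in DESeq2 (adjusted p = 0.0754). *Fn1* is also a monocyte gene, and the sum of the 6 monocyte genes, with *Ly6c2* and *Ms4a6c* among them, was 2097 to 2172 CPM in WT and 2293 to 3096 CPM in KO mice. Of those 6, 5 were above zero, 0 were called by edgeR and none was at 0 in all mice, and their part in the *Fn1* values was not tested. The sum contains *Fn1* itself, and without it the other 5 summed to 2048 to 2085 CPM in WT and 2178 to 2969 CPM in KO mice, with 4 above zero. *Ly6c2* was the largest part of that sum, at 1176 to 1299 CPM in WT and 1277 to 1960 CPM in KO mice. Taken alone, each of the 5 overlapped between the genotypes.

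*Vcam1*, which encodes the main marrow ligand of alpha 4 beta 1, had 163, 226 and 174 CPM in WT and 125, 151, 162 and 154 CPM in KO mice. All KO mice lay below all WT mice, although KO replicate 3 was close to the lowest WT mouse, and the log2 fold change of -0.34 (SE 0.15, unadjusted p = 0.0337) had an adjusted p of 0.999 in edgeR and was -0.18 without WT replicate 2. *Vcam1* is also made by resident macrophages, whose 8 marker genes summed to 320 to 393 CPM in WT and 211 to 272 CPM in KO mice, with 8 of 8 below zero, 0 called by edgeR and 6 at an unadjusted p under 0.05. The sum contains *Vcam1* itself, and without it was 157 to 167 CPM in WT and 86.3 to 109.9 CPM in KO mice. None of the 8 was at 0 in all mice, and the part of these cells was not tested. *C3*, which encodes a complement protein bound by alpha M beta 2 in its cleaved form, had a log2 fold change of 0.60 (SE 0.26, adjusted p = 0.999 in edgeR), which was 0.29 without KO replicate 3. *Icam1*, a ligand of LFA-1, stood at 22.6 ± 7.95 CPM (SD, n = 3) in WT and 22.1 ± 4.42 CPM (SD, n = 4) in KO cells, and *Lamc1*, a laminin chain gene, at 4.82 ± 2.17 and 3.47 ± 1.84 CPM.

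*Selplg*, which encodes PSGL-1, the main selectin ligand, stood at 430.0 ± 30.6 CPM (SD, n = 3) in WT and 458 ± 51.8 CPM (SD, n = 4) in KO cells, above every one of the 9 receptor genes. The endothelial and platelet selectin genes were sparse, with *Sele* at 1 to 11 reads and *Selp* at 5 to 43 reads per mouse. In the whole list of 16, 15 were tested, 9 were above zero, 6 below and 0 called, with a median of 0.06. *St3gal6*, a sialyltransferase gene, had a log2 fold change of 0.19 (SE 0.28), which was -0.13 without WT replicate 1.

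Of the other 18 integrin subunits, 8 were tested, with 2 above zero, 6 below, 0 called and a median log2 fold change of -0.16. *Itgax*, the alpha X partner of beta 2, stood at 71.8 ± 4.48 CPM (SD, n = 3) in WT and 70.1 ± 7.96 CPM (SD, n = 4) in KO cells, above *Itgam* in each mouse. The smallest p belonged to *Itgav*, the vitronectin receptor subunit (log2 fold change -0.38, SE 0.28), *Itgb3*, its partner and that of platelet alpha IIb (0.24, SE 0.25, and -0.09 without KO replicate 4), *Itga2*, a collagen receptor subunit (-0.40, SE 0.49), and *Itgad* (-0.46, SE 0.61, and 0.12 without WT replicate 3). *Itgav* was at -0.17 without KO replicate 1, and *Itga2* ran from -0.85 without KO replicate 1 to -0.11 without KO replicate 2. The 10 others did not pass the filter on low counts.

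In the machinery that switches integrins on, 17 of 20 genes were tested, with 9 above zero, 8 below and 0 called by edgeR. *Skap1*, an adaptor of LFA-1 activation in T cells, was at 15.3, 12.6 and 12.2 CPM in WT and 12.2, 8.29, 5.78 and 5.72 CPM in KO mice (log2 fold change -0.74, SE 0.33, unadjusted p = 0.0367, adjusted p = 0.999 in edgeR), and the highest KO and the lowest WT mouse met. *Fermt3*, which encodes kindlin-3, the blood cell activator of beta 1, beta 2 and beta 3 integrins, was at 42.0, 54.5 and 51.1 CPM in WT and 30.6, 39.2, 38.0 and 44.0 CPM in KO mice (-0.37, SE 0.18, unadjusted p = 0.055, adjusted p = 0.999 in edgeR). KO replicates 1 to 3 lay below every WT mouse and KO replicate 4 did not. *Flna*, which encodes filamin A, a protein that binds beta subunit tails, had a log2 fold change of 0.28 (SE 0.19), from 0.12 without KO replicate 3 to 0.53 without WT replicate 2. *Itgb1bp1*, which encodes the inhibitor ICAP-1, had one of -0.25 (SE 0.20), which was -0.11 without WT replicate 2 and -0.16 without KO replicate 1. *Fermt1* and *Fermt2* had 0 reads in all mice.

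Downstream, 29 of 33 genes for signalling and actin linkage were tested, with 16 above zero, 13 below and 0 called. *Rhoa*, the gene of a small GTPase of the actin cytoskeleton, was at 446, 462 and 495 CPM in WT and 505, 517, 553 and 511 CPM in KO mice, so the genotypes did not overlap, at a log2 fold change of 0.16 (SE 0.12, unadjusted p = 0.208). Among those with the smallest p were *Lims1*, which encodes PINCH-1 of the kinase-linked adhesion complex (-0.29, SE 0.17), *Crk*, an adaptor gene (-0.39, SE 0.27), and *Actn1*, the gene of an actin crosslinker (0.24, SE 0.17). Each had an adjusted p of 0.999 in edgeR. Without WT replicate 3 *Lims1* was at -0.10 and *Crk* at -0.18, and *Actn1* ran from 0.13 without KO replicate 3 to 0.42 without WT replicate 2.

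Tetraspanins and other proteins that sit beside integrins in the membrane were all tested, 13 of 13, with 6 above zero, 7 below and 0 called. *Tspan32*, a tetraspanin gene of blood cells, was at 88.6 ± 14.7 CPM (SD, n = 3) in WT and 60.6 ± 16.3 CPM (SD, n = 4) in KO cells. KO replicates 1 to 3 lay below every WT mouse and KO replicate 4 among them (log2 fold change -0.55, SE 0.19, unadjusted p = 0.00935, adjusted p = 0.999 in edgeR). *Cd47*, which encodes the integrin-associated protein, was at 496, 534 and 603 CPM in WT and 415, 473, 465 and 458 CPM in KO mice, with no overlap and a log2 fold change of -0.27 (SE 0.13, unadjusted p = 0.0473). *Cd53*, a tetraspanin gene of leukocytes, also did not overlap, at 230.2 to 273 CPM in WT and 158 to 225 CPM in KO mice (-0.26, SE 0.14, and -0.15 without KO replicate 3). *Plaur*, the urokinase receptor gene, had a log2 fold change of 0.76 (SE 0.37, unadjusted p = 0.0553, and 0.49 without WT replicate 1).

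For CD44, 15 of 21 ligand and partner genes were tested, with 10 above zero, 5 below and 0 called. *Stab2*, the gene of a hyaluronan scavenger receptor of sinusoidal endothelium, was at 4.38, 5.31 and 5.57 CPM in WT and 2.71, 0, 3.17 and 0.745 CPM in KO mice, which did not overlap (log2 fold change -1.56, SE 0.70, unadjusted p = 0.0392, adjusted p = 0.999 in edgeR), on 0 to 21 reads per mouse. *Msn* and *Ezr*, which encode moesin and ezrin, linkers of CD44 to actin, had log2 fold changes of 0.20 (SE 0.14, and 0.13 without WT replicate 1) and 0.16 (SE 0.14, and 0.07 without KO replicate 4). *Mmp9*, the gene of a gelatinase stored in neutrophil granules, had one of 0.89 (SE 0.59), which was 0.38 without KO replicate 3. The hyaluronan synthase genes *Has1* and *Has2* had 0 reads in all mice, and *Has3* had at most 1.

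Retention signals other than adhesion did not pass either, with 12 of 16 tested, 8 above zero, 4 below, 0 called and a median log2 fold change of 0.15. *Cxcr4* was at 118, 135 and 182 CPM in WT and 181, 154, 261 and 136 CPM in KO mice, highest in KO replicate 3 (log2 fold change 0.34, SE 0.21, unadjusted p = 0.129, and 0.12 without that mouse). *Cxcl12*, its ligand gene, was at 10.5, 26.0 and 12.99 CPM in WT and 21.3, 16.4, 96.2 and 18.9 CPM in KO mice, so KO replicate 3 alone lay outside the WT range (1.23, SE 0.85, and 0.21 without that mouse). The 8 markers of stroma and endothelium summed to 43.4 CPM in that mouse, where WT mice had 36.8 to 70.4 CPM, and without *Col1a1* 33.9 CPM where WT mice had 32.9 to 40.8 CPM. *Lepr*, a marker of CXCL12-producing stroma, had 10 reads in that mouse and 0 to 3 in the others, and *Kitl*, the stem cell factor gene, had 22 reads there and 0 to 13 in the others. The part of such cells in the *Cxcl12* values was not tested. *Kit*, the receptor gene for stem cell factor, was at 112 ± 11.1 CPM (SD, n = 3) in WT and 95.1 ± 8.64 CPM (SD, n = 4) in KO cells (-0.23, SE 0.14), and *Prtn3*, a neutrophil protease gene, had a log2 fold change of 0.19 (SE 0.16), from 0.08 without KO replicate 2 to 0.32 without KO replicate 1. Without KO replicate 3 the list split into 6 above and 6 below zero, with a median of 0.02.

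**Figure D5:**
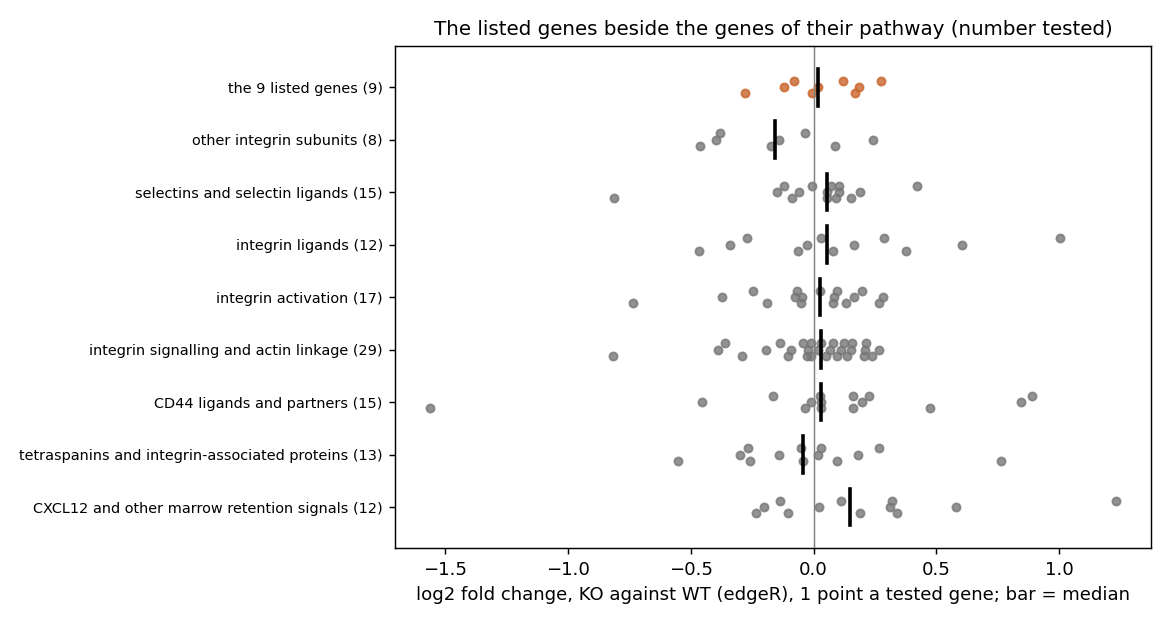
Log2 fold change of KO against WT from edgeR (x axis), 1 point a tested gene, for the 9 receptor genes (orange) and 8 lists of genes around them (grey), with the median of each as a black bar and the number tested in brackets. The 9 genes lie between -0.28 and 0.27, and the widest points are Stab2 (-1.56), Cxcl12 (1.23) and Fn1 (1.00).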

How the data were processed

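RNA of lin- bone marrow cells from 3 WT and 4 KO mice was measured with 3′ end libraries. The authors used STAR for alignment to GRCm38 and for quantification on Ensembl release 84 per their methods, and deposited counts, whole numbers of reads per gene that are not normalized. The strand counted is not given in the sources used here, so overlapping genes are uncertain. Tally rows were left out, and reads on no gene made up 27.0% to 31.6% of a library.

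Scaling by TMM, filtering by filterByExpr and CPM were computed in edgeR 4.0.16 (R 4.3.3), as was the robust quasi-likelihood test over all 11265 genes with Benjamini-Hochberg adjustment, called at an adjusted p under 0.25, the threshold of the study, with 0.05 beside it (2 genes at either). The standard error is the size of the log2 fold change divided by the square root of F. DESeq2 1.42.0 and limma 3.58.1 (voom), other scaling factors and filters, the *Rn45s* share as a covariate, the replicate number as a block and the omission of each mouse were alternatives, and the omission of mice for levels, ratios and list genes and of single genes from marker sums was chosen after the data were seen. At these depths 3 reads equal 0.559 to 0.838 CPM, which covers counting error only. Pairs of mice of a genotype differed by more than sampling noise. The p-values of edgeR set the difference between genotypes against the spread between mice within a genotype, moderated across genes, over these 7 mice.

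The 9 genes and the gene lists were chosen with earlier results of these data known. Genes were named by a rule, namely the 9 genes, *Hdgfl2*, *Sele*, *Selp*, *Selplg*, *Vcam1*, *Icam1*, *Cxcl12* and *Cxcr4*, the called genes and the 4 smallest p of each list, the 3 genes most like each of the 9 by Pearson's correlation, and up to 3 genes of each marker list. Some genes that the rule names are not reported here. *Has1*, *Has2*, *Has3*, *Fermt1*, *Fermt2*, *Itgax*, *Rhoa*, *Lepr*, *Kitl*, *Tln1*, *Tln2*, *Xist*, *Ddx3y* and *Rn45s* were named after their values were seen. Coordinates are from GENCODE M21 on GRCm38, which holds 97.6% of the symbols, and promoters from RefSeq on GRCm38.p6.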

Additional observations from a re-analysis of the deposited data

Results flagged for a closer look

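Of 52 values examined over the 4 KO mice, 3 had a mouse far from the others, where chance gives about 1 in 20 (2.6 of 52), and all 3 were in KO replicate 3. *Cxcl12* stood at 96.2 CPM there and at 16.4 to 21.3 CPM in the other KO mice. *C3* was 239 CPM in that mouse and 111 to 131 CPM in the others. *Cd53* was 158 CPM in it and 215 to 225 CPM in the others. None of the 9 receptor genes was among these 3. KO replicate 4 also stood far from the other KO mice in *Col1a1* and in the sum of megakaryocyte markers. Both are given below and were not among the 52 values.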

How the results depend on the processing

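The number of genes called over the whole table, 2 with all mice, was 41 with no filter on low counts, 1 with at least 10 reads in every mouse, 19 by DESeq2, 8 with the *Rn45s* share as a covariate and 2 to 7 with each mouse left out, 7 being without WT replicate 1 and 4 without KO replicate 1. None of these fits called any of the 9 genes, the lowest adjusted p being 0.949, and the cause of the differences in number was not tested. *Itga6*, *Itgam*, *Itgb2* and *Itgb7* kept their direction in 17 of 17 fits. The log2 fold change of *Cd44* turned to 0.0040 with DESeq2 size factors, 0.0039 with library size alone and 0.0044 by DESeq2, and that of *Itgal* to -0.0038 with the *Rn45s* covariate. With each mouse left out it ran from -0.036 to 0.048 for *Cd44*, -0.19 to 0.015 for *Itga4*, -0.24 to 0.56 for *Itga5*, -0.072 to 0.12 for *Itgal* and -0.13 to 0.0061 for *Itgb1*. *Itga5* could not be tested with at least 10 reads in every mouse.

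Same-numbered WT and KO mice are different animals and their deviations did not go together (correlation -0.215 to -0.0249), so the numbers were not taken to pair them. With the replicate block 1 gene was called, *Cd44* had a log2 fold change of 0.028, and no call among the 9 genes changed.

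With *Rn45s* left out of library sizes the mean CPM rose in both genotypes, to 124 for *Itga4* (KO), 90.4 for *Itga6* (WT), 355 and 359 for *Itgal* (WT and KO), 160.1 and 151 for *Itgb1*, 135 for *Itgb2* (WT), 205 and 234 for *Itgb7*, and 359.6 and 358 for *Cd44*, a change of scale by the construction of CPM. Low read counts limit the precision for *Itga5*, *Sele*, *Selp* and *Stab2*, among others.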

Other observations

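KO replicate 4 had the highest sum of megakaryocyte markers, and with it the highest values of the platelet integrin genes. The 8 megakaryocyte markers, which include both integrin genes named next, summed to 977 CPM in that mouse, against 151 to 421 CPM in the other 6. Its sums of the 8 erythroid markers (292 CPM against 59.9 to 261 CPM) and of the 8 B lineage markers (336 CPM against 75.5 to 212 CPM) were also the highest. Without *Itga2b* and *Itgb3* the megakaryocyte sum was 701 CPM against 27.5 to 226 CPM. *Itga2b*, the alpha IIb gene, was at 187 CPM against 65.7 to 142 CPM, and *Itgb3* at 89.2 CPM against 38.4 to 53.6 CPM. *Col1a1*, a collagen gene of stroma, was at 517 CPM there against 3.98 to 34.8 CPM, while the other 7 stroma and endothelium markers summed to 28.3 CPM against 23.8 to 40.8 CPM. *Itga6*, which platelets also carry, was highest among KO mice there (75.8 CPM against 49.4 to 70.7 CPM), below the highest WT mouse, and its log2 fold change was -0.36 without KO replicate 4. Among WT mice the order was the other way. WT replicate 1 had the highest megakaryocyte sum (421 CPM against 279 and 269 CPM) and the lowest *Itga6* (70.2 CPM against 82.7 and 83.5 CPM). The part of such cells in the *Itga6* values was not tested. Of the 12 marker lists, none held a gene called by edgeR. The genotypes overlapped in their sums except for the monocyte and resident macrophage lists given with *Fn1* and *Vcam1* and the list of eosinophils, basophils and mast cells, with *Prss34*, *Prg2* and *Mcpt8* as its most abundant genes. That list summed to 4208 to 4646 CPM in WT and 2872 to 3908 CPM in KO mice, with 8 of 8 genes below zero and 4 at an unadjusted p under 0.05.

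*Tln2*, a second talin gene, named after its values were seen, had 2, 1 and 3 reads in the WT and 9, 15, 16 and 8 reads in the KO mice. It did not pass the filter on low counts and was not tested, while *Tln1*, the talin gene of blood cells, stood at 333 ± 37.4 CPM (SD, n = 3) in WT and 374 ± 54.3 CPM (SD, n = 4) in KO cells.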
